A study of Homo sapiens with 16 samples.

Results

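NF-kappaB is a family of transcription factors that waits in the cytoplasm bound to inhibitor proteins and enters the nucleus when a stimulus removes them. Some of its best known targets are its own subunits and its own inhibitors, which makes the system switch itself off again. In lung epithelium it is known for its part in inflammation and in the survival of tumour cells, and hepatocyte growth factor (HGF), the ligand of the receptor tyrosine kinase MET, is one of many stimuli that can reach it. The report follows 10 genes of this loop, chosen by symbol and with earlier results of these data known, out of 42351 genes in the table of counts. They include the subunit genes NFKB1, NFKB2 and RELB, and the genes NFKBIA, NFKBIE and NFKBIZ of the inhibitor (IκB) family. The others are TNFAIP3 and TNFAIP2, and BIRC3 and TRAF1, which act at the receptors. All 10 were among the 15067 genes that passed the filter on low counts.

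Polyadenylated RNA was sequenced from 2 human lung cancer cell lines. A549 is named by the labels as the line expressing wt MET, and NCI-H596 as the one expressing MET∆14, a receptor that lacks the stretch encoded by exon 14, which holds the docking site of the ubiquitin ligase CBL. The text of the study names EKVX as its cells with wt MET and does not mention A549. The lines are called here as the labels call them. The cells of every group were deprived of serum, for a time that the labels and the study's methods give differently, and were taken at 0 h, before HGF, or after 3 h, 6 h or 12 h of HGF. With 2 replicates for each of the 8 conditions, described as biological duplicates, there were 16 libraries. Each form of MET was represented by 1 cell line, so a difference between the forms of the receptor cannot be told apart from any other difference between the lines, and without cells kept without HGF for 12 h an effect of time in culture cannot be told apart from one of HGF. The study also describes transcriptomes of cells with amplified wt MET, and none of the 16 libraries came from such cells.

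The promoters of these genes are where the loop closes, so the stretches that hold a binding motif of NF-kappaB are shown first. In the promoter sequences of RefSeq (GRCh38.p14), 8 of the 10 genes had an entry, and the 250 bases before each annotated start were searched on both strands for a common form of the motif, which reads 3 G, any 2 bases, 3 T and 2 C. The motif has 10 letters, and a match on the other strand shows as 2 G, 3 A, any 2 bases and 3 C. The motif was found before at least 1 start of 6 of the 8 genes (NFKB1, NFKB2, NFKBIA, NFKBIZ, TNFAIP3 and BIRC3), and in 1.73% of all 35116 promoter windows of this length, or for 2.12% of 27305 genes. A looser pattern, the NF-kappaB consensus, was held by the same 6 genes and by 11.8% of all genes. RELB and NFKBIE had no entry. In the windows of TNFAIP2 and TRAF1 the letters did not occur, which says nothing about the factor elsewhere. The sequences below are written 5′ to 3′ on the strand of the gene, with the motif in capitals.
NFKBIA, chr14:35404750-35404999, minus strand, the 250 bases before the start: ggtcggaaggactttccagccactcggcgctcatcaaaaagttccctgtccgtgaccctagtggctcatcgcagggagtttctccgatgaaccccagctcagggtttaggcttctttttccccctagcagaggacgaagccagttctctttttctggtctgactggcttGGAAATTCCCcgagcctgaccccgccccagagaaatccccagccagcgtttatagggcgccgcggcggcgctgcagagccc
TNFAIP3, chr6:137867009-137867213, plus strand, up to the start of the gene in GENCODE: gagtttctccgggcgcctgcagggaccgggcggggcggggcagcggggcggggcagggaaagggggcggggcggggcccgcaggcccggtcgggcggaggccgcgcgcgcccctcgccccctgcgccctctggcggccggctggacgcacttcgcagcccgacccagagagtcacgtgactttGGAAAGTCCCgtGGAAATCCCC
NFKB1, chr4:102501300-102501329, plus strand: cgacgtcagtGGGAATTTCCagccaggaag
NFKB2, chr10:102394490-102394519, plus strand: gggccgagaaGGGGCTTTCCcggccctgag
NFKB2, chr10:102395674-102395703, plus strand: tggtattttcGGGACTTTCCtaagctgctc
NFKBIZ, chr3:101827757-101827786, plus strand: tttttggtctGGGAATTTCCagtgtgcaga
BIRC3, chr11:102317275-102317304, plus strand: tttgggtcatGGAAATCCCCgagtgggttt

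TNFAIP3 held 2 matches next to each other at the end of the printed stretch. They began 67 and 55 bases before the start in RefSeq, which lies downstream of the GENCODE start where the stretch ends, and the single match of NFKBIA began 81 bases before its RefSeq start. NFKBIA and TNFAIP3 are printed at length because their responses are the clearest contrast below: each promoter held the motif, and TNFAIP3 rose in both lines, while NFKBIA rose in A549 and its response differed between the lines. A match is a description of the letters and not a site shown to be bound.

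Total counts per library lay between 10158590 and 23909304. As a check of the labels, CDKN2A, which is deleted in A549, had 0 counts in all 8 A549 libraries, where up to 3 counts would remain possible, and between 86.0 and 157 CPM, the count scaled to library size, in NCI-H596. The epithelial keratin KRT8 was between 493 and 991 CPM in A549 and between 541 and 904 CPM in NCI-H596. The blood cell genes PTPRC and CD3E each reached at most 2 counts in any library, while EPCAM stayed at or below 2.97 CPM in A549. In 2 conditions the replicates lay further apart than elsewhere: the chi-square per degree of freedom between replicates was 9.80 at 0 h in A549 and 34.1 at 12 h in NCI-H596, against 2.75 to 4.48 in the other conditions. Log2 changes of the 10 genes from 0 h in A549, and those at 12 h in NCI-H596, are given with all libraries and without each of these. P-values set each change against a spread estimated per gene from the replicates of all 8 conditions, not only of those compared. A library of another condition can therefore change a call. Each log2 change is followed by ± its SE, and the adjusted p is that of edgeR. Whether the libraries of 2 conditions overlapped is given as a description and not as a test. With 2 libraries on each side, full separation is common without a change, and its share over all genes is not given.

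Before HGF, the lines differed in most of these genes, and most in BIRC3 and NFKBIZ. In bulk RNA, fewer cells with a transcript and less of it per cell cannot be told apart. On a scale that corrects for transcript length (RPKM, from the length of the Ensembl canonical transcript), NFKBIA, the gene of the inhibitor IκBα, had the highest mean at 0 h in both lines, with 28.4 and 29.6 RPKM in A549 and 31.9 and 32.1 RPKM in NCI-H596. In A549, TNFAIP2 (24.4 and 33.3 RPKM) and NFKB2 (23.7 and 29.7 RPKM) overlapped with NFKBIA, so that these 3 levels had no clear order. RELB followed with a mean of 15.5 RPKM and NFKB1 with 13.5 RPKM, then BIRC3 with 9.01, TNFAIP3 with 5.96, NFKBIE with 5.42, NFKBIZ with 2.28 and TRAF1 with 1.59 RPKM. RELB overlapped with NFKB1, and TNFAIP3 with NFKBIE. In NCI-H596 the order of the means was NFKBIA (32.0), NFKB1 (20.4), TNFAIP2 (16.3), NFKB2 (14.6), NFKBIZ (10.03), TNFAIP3 (7.81), RELB (6.27), TRAF1 (4.03), NFKBIE (3.24) and BIRC3 (1.98 RPKM), and no neighbours overlapped. With the merged length of all exons in place of the canonical transcript, NFKB1 moved from rank 5 to 8 in A549 and from rank 2 to 6 in NCI-H596, and TNFAIP2 took rank 1 in both lines, so the order holds only for the transcript lengths used.

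**Figure D1:**
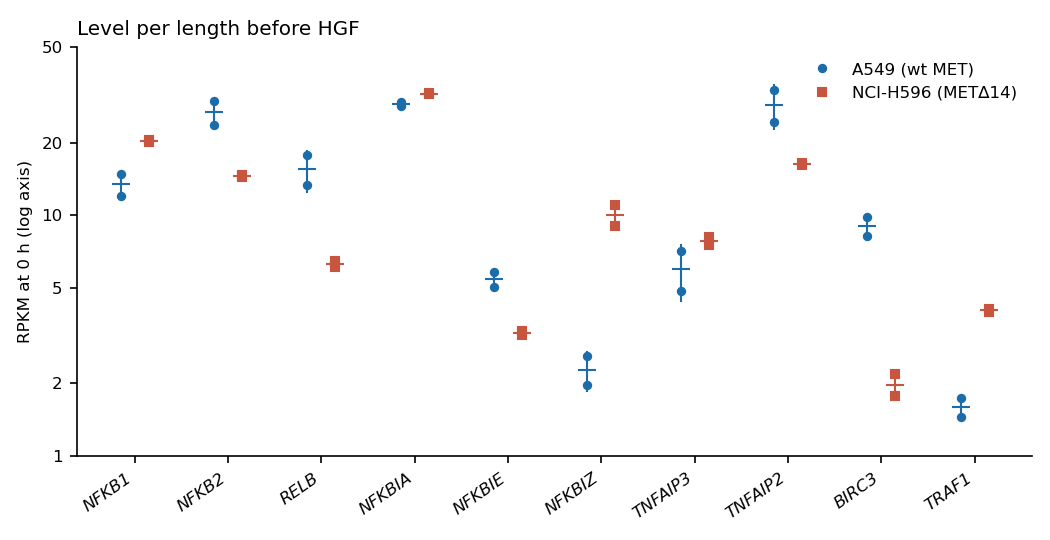
Level per length of the 10 genes at 0 h of HGF. The vertical axis is RPKM on a log scale, circles are the 2 A549 libraries and squares the 2 NCI-H596 libraries, the horizontal bar is the mean and the vertical bar ± 1 SD (n = 2). BIRC3 lies at 9.01 RPKM in A549 and at 1.98 RPKM in NCI-H596, while NFKBIZ lies at 2.28 and 10.03 RPKM.

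In a quasi-likelihood test of edgeR over all 16 libraries, 8 of the 10 genes differed between the lines at 0 h at an adjusted p of at most 0.05, as did 80.2% of all genes tested (40.6% higher and 39.6% lower in NCI-H596), so a difference at this time is the rule between these lines. BIRC3, a ubiquitin ligase at the TNF receptors that protects from cell death, was 56.6 and 67.4 CPM in A549 and 14.99 and 12.2 CPM in NCI-H596, 4.58-fold lower in the latter (log2 difference -2.20 ± 0.14, adjusted p = 6.26e-10). NFKBIZ, which encodes the atypical nuclear protein IκBζ, went the other way, with 7.74 and 10.2 CPM in A549 and 43.4 and 35.3 CPM in NCI-H596, 4.38-fold higher (log2 difference 2.13 ± 0.20, adjusted p = 9.43e-08). For both genes the lines did not overlap. TRAF1 (1.34 ± 0.18) and NFKB1 (0.60 ± 0.10) were also higher in NCI-H596 on the log2 scale, and RELB (-1.31 ± 0.16), NFKB2 (-0.87 ± 0.11), TNFAIP2 (-0.82 ± 0.12) and NFKBIE (-0.74 ± 0.15) lower. NFKBIA (log2 difference 0.14, 95% interval -0.16 to 0.45, adjusted p = 0.365 in edgeR) and TNFAIP3 (0.39, -0.020 to 0.80, adjusted p = 0.0735) did not pass the threshold. Of the alternative fits, 5 called TNFAIP3 and 16 did not. Among the 5, 2 left out a library and the others kept all libraries, so this result depended on the processing. TNFAIP3 was 0.14 (adjusted p = 0.549) without the first A549 library at 0 h and 0.72 (adjusted p = 0.00729) without the second, and it passed without the second NCI-H596 library at 12 h (0.41, adjusted p = 0.0497).

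After HGF, 9 of the 10 genes rose in A549 at 6 h and TNFAIP2 fell, whereas NCI-H596 showed a split. There NFKB1, NFKB2, RELB, NFKBIE and TNFAIP3 rose, TRAF1 and TNFAIP2 fell, and NFKBIA, NFKBIZ and BIRC3 did not pass the test at 3 h or 6 h. Each time was compared with 0 h of the same line. In A549, 9 genes were called at 3 h (8 higher, 1 lower), against 17.4% of all genes (10.3% higher, 7.16% lower). At 6 h 10 were called (9 higher, 1 lower), against 34.2% (16.4% higher, 17.8% lower), and at 12 h 6 (5 higher, 1 lower), against 35.1% (16.9% higher, 18.2% lower). The median log2 change of the 10 genes was 0.60, 0.95 and 0.43 at these times, and that of all genes tested was -0.044, -0.053 and -0.0019. In NCI-H596, 6 were called at 3 h (5 higher, 1 lower), against 31.7% of all genes (15.5% higher, 16.1% lower), and 7 at 6 h (5 higher, 2 lower), against 44.1% (21.6% higher, 22.5% lower). At 12 h 4 were called (1 higher, 3 lower), a share close to the 38.3% of all genes (18.3% higher, 20.1% lower). In this line the medians were 0.35, 0.092 and -0.0072, and those of all genes -0.053, -0.039 and -0.024. Without the first A549 library at 0 h, or without the first at 3 h, the count at 3 h in A549 was 4. The count at 12 h in NCI-H596 was 2 without its first library at 0 h and 7 without its first at 12 h. In the F tests over the 3 times, all 10 genes were called in A549 against 40.3% of all genes, and 8 in NCI-H596 against 54.1%, the exceptions being NFKBIA (adjusted p = 0.186) and NFKBIZ (adjusted p = 0.207).

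The 3 subunit genes among the 10 rose in both lines, with the highest mean at 6 h in A549 and at 3 h in NCI-H596. The step from 3 h to 6 h was not called for NFKB1, NFKB2 or RELB in NCI-H596 (adjusted p = 0.158, 0.34 and 0.586 in edgeR). Nor was it for RELB in A549 (adjusted p = 0.11), so the times of the highest means are a description. REL, a subunit gene outside the 10, fell in NCI-H596 at 6 h and is given below. NFKB1 encodes p105, the precursor of the p50 subunit, and lies on chromosome 4 (102501330 to 102617302 in hg38, plus strand). Its level in A549 was 48.9 and 60.2 CPM at 0 h, 78.2 and 72.7 at 3 h, 104 and 97.3 at 6 h and 86.3 and 75.1 at 12 h. In NCI-H596 it was 83.5 and 82.0, 133 and 121, 103 and 112 and 90.4 and 88.3 CPM at the same times. At each time with HGF, both libraries of each line lay above both at 0 h, also at 12 h in NCI-H596, where the change did not pass the test. NFKB1 rose in A549 at 3 h, by a log2 change of 0.47 ± 0.11 (adjusted p = 0.00585) in edgeR, and by 0.89 ± 0.10 (adjusted p = 1.5e-05) at 6 h and 0.57 ± 0.10 (adjusted p = 0.000703) at 12 h. In NCI-H596 it was 0.62 ± 0.10 (adjusted p = 0.000252) at 3 h and 0.38 ± 0.10 (adjusted p = 0.00634) at 6 h, and at 12 h it did not pass (0.11 ± 0.10, adjusted p = 0.413). The further change from 3 h to 6 h in A549 was 0.42 ± 0.10 (adjusted p = 0.0378), a call lost in 10 of 16 fits with a library left out. At 3 h in A549 the call was lost without the first library at 0 h (0.33, adjusted p = 0.0843) or the first at 3 h (0.44, adjusted p = 0.0501). At 6 h in NCI-H596 it was lost without the second at 0 h (0.36, adjusted p = 0.0532) or the second at 6 h (0.31, adjusted p = 0.0801). NFKB1 in A549 had log2 changes of 0.33 and 0.65 at 3 h, 0.75 and 1.07 at 6 h and 0.43 and 0.72 at 12 h without the first and the second library at 0 h. NFKB1 in NCI-H596 had 0.094 and 0.12 at 12 h without the first and the second library of that time.

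NFKB2 encodes p100, the precursor of p52 in the alternative branch of the pathway, on chromosome 10 (102394110 to 102402524, plus strand). In A549 it was 71.6 and 89.6 CPM at 0 h, 126 and 122 at 3 h, 167 and 162 at 6 h and 106 and 110.3 at 12 h. In NCI-H596 the levels were 44.4 and 43.7, 62.6 and 62.3, 50.2 and 59.98 and 41.8 and 39.0 CPM. At 6 h the A549 libraries lay 2.04-fold above 0 h and did not overlap with any other time, and in NCI-H596 the libraries at 12 h lay below those at 0 h. The log2 changes were 0.62 ± 0.10 (adjusted p = 0.000637), 1.03 ± 0.10 (adjusted p = 3.23e-06) and 0.42 ± 0.10 (adjusted p = 0.00508) in A549. They were 0.50 ± 0.11 (adjusted p = 0.00194), 0.33 ± 0.11 (adjusted p = 0.0196) and -0.12 ± 0.11 (adjusted p = 0.407) in NCI-H596, the last of which did not pass in edgeR. The step up from 3 h to 6 h in A549 (0.41 ± 0.10, adjusted p = 0.0381) was called, but not in 10 of 16 fits with a library left out. From 6 h to 12 h it fell in both lines, with a log2 change of -0.61 ± 0.100 in A549 (adjusted p = 0.00113 in edgeR) and -0.45 ± 0.11 in NCI-H596 (adjusted p = 0.00987). The change at 6 h in NCI-H596 was not called without either library at 0 h (0.33, adjusted p = 0.0832, and 0.31, adjusted p = 0.108) or without the second at 6 h (0.18, adjusted p = 0.294). At 12 h in A549 it was not called without the first A549 library at 0 h (0.27, adjusted p = 0.0768). The last step in NCI-H596 was not called without the second library at 6 h (-0.30, adjusted p = 0.17). NFKB2 in A549 had log2 changes of 0.47 and 0.82 at 3 h, 0.88 and 1.23 at 6 h and 0.27 and 0.59 at 12 h without the first and the second library at 0 h. NFKB2 in NCI-H596 had -0.17 and -0.088 at 12 h without the first and the second library of that time.

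RELB, the partner of p52, lies on chromosome 19 (45001461 to 45038192, plus strand). Its A549 levels were 30.02 and 40.01 CPM at 0 h, 52.2 and 52.0 at 3 h, 74.9 and 67.5 at 6 h and 64.1 and 62.8 at 12 h. Those in NCI-H596 were 14.6 and 13.7, 31.4 and 30.9, 26.4 and 29.3 and 14.3 and 21.2 CPM. In A549 it stayed high at 12 h (0.86 ± 0.15, adjusted p = 0.000385 on the log2 scale), and all its libraries with HGF lay above those at 0 h. In NCI-H596 the first library at 12 h lay within the range at 0 h, and the second between 0 h and 6 h. The log2 change was 0.57 ± 0.15 (adjusted p = 0.0139) and 1.02 ± 0.15 (adjusted p = 8.39e-05) at 3 h and 6 h in A549, and 1.14 ± 0.16 (adjusted p = 6.27e-05) and 0.98 ± 0.16 (adjusted p = 0.000143) in NCI-H596 in edgeR. At 12 h in NCI-H596 the change was 0.30 ± 0.17 (adjusted p = 0.174), 0.59 (adjusted p = 0.00555) without the first of these libraries and 0.0049 (adjusted p = 1) without the second. From 6 h to 12 h RELB fell in NCI-H596 (-0.68 ± 0.16, adjusted p = 0.00857), but not without the second library at 6 h (-0.59, adjusted p = 0.107) or the first at 12 h (-0.40, adjusted p = 0.0896), nor in a fit of the NCI-H596 libraries alone. The call at 3 h in A549 was lost without the first library at 0 h (0.38, adjusted p = 0.164) or without either at 3 h (0.60, adjusted p = 0.067, and 0.59, adjusted p = 0.0723). RELB in A549 had log2 changes of 0.38 and 0.82 at 3 h, 0.83 and 1.27 at 6 h and 0.67 and 1.08 at 12 h without the first and the second library at 0 h.

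Within the IκB family, NFKBIA differed most between the lines in its change at 3 h and 6 h, followed by NFKBIZ. IκBα holds NF-kappaB in the cytoplasm and is itself made when NF-kappaB is active, and its gene lies on chromosome 14 (35401079 to 35404749, minus strand). In A549 it was 44.3 and 46.1 CPM at 0 h, 140 and 120.4 at 3 h, 119 and 100.3 at 6 h and 68.6 and 64.1 at 12 h. In NCI-H596 the levels were 50 and 49.8, 54.2 and 60.1, 44.2 and 45.9 and 44.1 and 64.2 CPM. At 0 h the lines lay within a few CPM of each other, and at 3 h and 6 h all A549 libraries lay above all NCI-H596 libraries. NFKBIA rose 2.88-fold in A549 at 3 h (log2 1.53 ± 0.14, adjusted p = 3.49e-06) and was still higher at 6 h (1.28 ± 0.14, adjusted p = 9.06e-06) and 12 h (0.55 ± 0.14, adjusted p = 0.00678) in edgeR. It fell from 6 h to 12 h (-0.72 ± 0.14, adjusted p = 0.00304). In NCI-H596 the changes were 0.20 ± 0.14, -0.14 ± 0.14 and 0.11 ± 0.14 on the log2 scale, with 95% intervals of -0.10 to 0.50, -0.44 to 0.16 and -0.19 to 0.41, and none passed the test. The change at 12 h turned on 1 library in NCI-H596, being 0.36 (adjusted p = 0.0142) without the first at 12 h and -0.19 (adjusted p = 0.175) without the second. In A549 the call at 12 h was lost without the first library at 0 h (0.53, adjusted p = 0.0535) or the first at 12 h (0.49, adjusted p = 0.0676). NFKBIA in A549 had log2 changes of 1.4999 and 1.58 at 3 h, 1.25 and 1.33 at 6 h and 0.53 and 0.58 at 12 h without the first and the second library at 0 h.

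NFKBIE, which encodes the related inhibitor IκBε, rose in both lines. It lies on chromosome 6 (44258166 to 44265788, minus strand). Its A549 levels were 11.8 and 13.6 CPM at 0 h, 27.2 and 27.6 at 3 h, 29.3 and 26.9 at 6 h and 15.5 and 16.8 at 12 h. Those in NCI-H596 were 7.76 and 7.45, 21.1 and 19.8, 13.8 and 16.4 and 8.38 and 11.2 CPM. In both lines the libraries at 3 h and 6 h lay above those at 0 h and 12 h without overlap. The log2 change was 1.10 ± 0.14 (adjusted p = 5.44e-05) and 1.14 ± 0.14 (adjusted p = 1.66e-05) in A549 and 1.43 ± 0.14 (adjusted p = 2.48e-06) and 0.998 ± 0.14 (adjusted p = 5.21e-05) in NCI-H596, and at 12 h it was 0.34 ± 0.14 (adjusted p = 0.0696 in edgeR) and 0.34 ± 0.15 (adjusted p = 0.0941). It fell between 6 h and 12 h, with a log2 change of -0.80 ± 0.13 in A549 and -0.66 ± 0.14 in NCI-H596. The latter was not called without the second library at 6 h (-0.51, adjusted p = 0.113) or the first at 12 h (-0.45, adjusted p = 0.082). At 12 h the change in NCI-H596 passed without its first library of that time (0.56, adjusted p = 0.0134) and not without the second (0.13, adjusted p = 0.546), and it passed in A549 without either NCI-H596 library at 12 h (0.34, adjusted p = 0.0233, and 0.33, adjusted p = 0.0265). NFKBIE in A549 had log2 changes of 1.004 and 1.24 at 3 h, 1.04 and 1.28 at 6 h and 0.24 and 0.45 at 12 h without the first and the second library at 0 h.

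NFKBIZ rose in A549 from a low level. The gene lies on chromosome 3 (101827991 to 101861022, plus strand), and 3.29% of its exon bases are shared with NXPE3 on the same strand, whose reads could be counted with it. In A549 it was 7.74 and 10.2 CPM at 0 h, 18.8 and 12.9 at 3 h, 14.1 and 13.5 at 6 h and 11.9 and 12.5 at 12 h. In NCI-H596 it was 43.4 and 35.3, 29.7 and 29.8, 28.2 and 33.8 and 38.7 and 27.4 CPM. All libraries with HGF lay above those at 0 h in A549, and in NCI-H596 they lay below them except the first at 12 h. The log2 change was 0.83 ± 0.21 (adjusted p = 0.0135) at 3 h and 0.62 ± 0.21 (adjusted p = 0.0347) at 6 h in A549. These calls were lost without the first library at 0 h (0.65, adjusted p = 0.146 at 3 h and 0.44, adjusted p = 0.257 at 6 h in edgeR), the first at 3 h (0.56, adjusted p = 0.174) or either at 6 h (0.61, adjusted p = 0.119, and 0.67, adjusted p = 0.0804). At 12 h in A549 it was 0.44 ± 0.21 (adjusted p = 0.125), and in NCI-H596 the values were -0.40 ± 0.18 (adjusted p = 0.1), -0.34 ± 0.17 (adjusted p = 0.135) and -0.23 ± 0.18 (adjusted p = 0.317). These 3 did not pass. The one at 3 h did without either NCI-H596 library at 12 h (-0.39, adjusted p = 0.0319, and -0.39, adjusted p = 0.0297), the one at 6 h without the second at 12 h (-0.34, adjusted p = 0.0465), and the one at 12 h without the first at 12 h (-0.52, adjusted p = 0.035), but not without the second (-0.031, adjusted p = 0.91). NFKBIZ in A549 had log2 changes of 0.65 and 1.07 at 3 h, 0.44 and 0.86 at 6 h and 0.26 and 0.65 at 12 h without the first and the second library at 0 h.

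TNFAIP3 had the largest change of the 10 genes in both lines. It encodes A20, an enzyme that edits ubiquitin chains and shuts down signalling to NF-kappaB, and lies on chromosome 6 (137867214 to 137883314, plus strand), where 1.47% of its exon bases overlap WAKMAR2 on the opposite strand. Its levels in A549 were 22.5 and 33.1 CPM at 0 h, 118 and 97.5 at 3 h, 126 and 104 at 6 h and 57.9 and 50.3 at 12 h. In NCI-H596 they were 35.1 and 37.7, 127 and 118, 149.9 and 144 and 102 and 70.9 CPM. Every library with HGF lay above both libraries at 0 h of its line, and those at 12 h lay between the level at 0 h and that at 6 h. At 6 h it was 4.13-fold higher in A549 (log2 2.05 ± 0.18, adjusted p = 2.97e-06) and 4.03-fold higher in NCI-H596 (log2 2.01 ± 0.18, adjusted p = 1.06e-06). At 3 h the log2 change was 1.96 ± 0.19 (adjusted p = 9.42e-06) and 1.74 ± 0.18 (adjusted p = 6.48e-06), and at 12 h 0.96 ± 0.19 (adjusted p = 0.0014) and 1.25 ± 0.18 (adjusted p = 0.000119) in edgeR, all called without any single library of the 16. From 6 h to 12 h it fell in A549 (-1.08 ± 0.18, adjusted p = 0.00133) and in NCI-H596 (-0.76 ± 0.17, adjusted p = 0.00861), the latter not called without the first (-0.73, adjusted p = 0.0501) or the second library at 6 h (-0.79, adjusted p = 0.0518). TNFAIP3 in A549 had log2 changes of 1.71 and 2.29 at 3 h, 1.80 and 2.38 at 6 h and 0.71 and 1.27 at 12 h without the first and the second library at 0 h. TNFAIP3 in NCI-H596 had 0.96 and 1.46 at 12 h without the first and the second library of that time.

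TNFAIP2, first described as a gene switched on by TNF, went the opposite way and fell in both lines. It lies on chromosome 14 (103121476 to 103137439, plus strand), and 0.474% of its exon bases overlap a gene on the opposite strand. In A549 it was 156 and 114 CPM at 0 h, 106 and 96.9 at 3 h, 59.98 and 63.7 at 6 h and 61.2 and 62.9 at 12 h. In NCI-H596 it was 76.9 and 76.0, 76.1 and 92.3, 37.6 and 39.6 and 39.7 and 36.4 CPM. At 6 h and 12 h the libraries of both lines lay below all earlier ones, and in NCI-H596 the libraries at 3 h overlapped with those at 0 h. The log2 change in A549 was -0.41 ± 0.12 (adjusted p = 0.0323) at 3 h, -1.13 ± 0.12 (adjusted p = 9.74e-06) at 6 h and -1.12 ± 0.12 (adjusted p = 1.38e-05) at 12 h. In NCI-H596 it was 0.14 ± 0.12 (adjusted p = 0.42), -0.98 ± 0.13 (adjusted p = 2.05e-05) and -1.002 ± 0.13 (adjusted p = 3.13e-05), and TNFAIP2 fell between 3 h and 6 h (-1.13 ± 0.13, adjusted p = 0.000106). It was the 1 gene of the 10 called in that step, against 9.77% of all genes (4.67% higher, 5.1% lower), and 3 were called without either NCI-H596 library at 12 h. The call at 3 h in A549 was near the threshold and was lost in 11 of 16 fits with a library left out, with a log2 change of -0.17 (adjusted p = 0.409) without the first library at 0 h. The step from 3 h to 6 h in A549 was -0.72 ± 0.13 (adjusted p = 0.00525), and was not called without the first library at 3 h (-0.65, adjusted p = 0.0824) or either at 6 h (-0.67, adjusted p = 0.0649, and -0.76, adjusted p = 0.0533). TNFAIP2 in A549 had log2 changes of -0.17 and -0.59 at 3 h, -0.88 and -1.31 at 6 h and -0.88 and -1.33 at 12 h without the first and the second library at 0 h. TNFAIP2 in NCI-H596 had -1.07 and -0.96 at 12 h without the first and the second library of that time.

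The 2 genes that act at the receptors diverged between the lines. BIRC3, on chromosome 11 (102317484 to 102339403, plus strand, with 1.68% of its exon bases overlapped on the opposite strand), was 56.6 and 67.4 CPM at 0 h, 84 and 85.8 at 3 h, 108 and 90.9 at 6 h and 72.5 and 69.0 at 12 h in A549. In NCI-H596 it was 14.99 and 12.2, 13.4 and 14.8, 11.2 and 12.5 and 8.81 and 11.3 CPM. In A549 all libraries with HGF lay above those at 0 h, and in NCI-H596 both at 12 h lay below both at 0 h. BIRC3 rose in A549 by 0.45 ± 0.12 (adjusted p = 0.0177) and 0.68 ± 0.12 (adjusted p = 0.000555) on the log2 scale, was 0.19 ± 0.12 (adjusted p = 0.245) at 12 h, and fell from 6 h to 12 h (-0.49 ± 0.12, adjusted p = 0.0152). In NCI-H596 the values were 0.064 ± 0.15 (adjusted p = 0.785), -0.18 ± 0.15 (adjusted p = 0.35) and -0.45 ± 0.16 (adjusted p = 0.0321) in edgeR, and the last was not called without the first library at 0 h (-0.31, adjusted p = 0.246) or the first at 12 h (-0.26, adjusted p = 0.312), nor in a fit of the NCI-H596 libraries alone. At 3 h in A549 the call was lost without the first library at 0 h (0.33, adjusted p = 0.172) or either at 3 h (0.50, adjusted p = 0.0647, and 0.46, adjusted p = 0.0956). The last step in A549 was not called without the first at 6 h (-0.39, adjusted p = 0.162) or either at 12 h (-0.56, adjusted p = 0.0669, and -0.48, adjusted p = 0.107). BIRC3 in A549 had log2 changes of 0.33 and 0.61 at 3 h, 0.56 and 0.84 at 6 h and 0.072 and 0.32 at 12 h without the first and the second library at 0 h. BIRC3 in NCI-H596 had -0.26 and -0.63 at 12 h without the first and the second library of that time.

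TRAF1, an adaptor that joins TRAF2 and the BIRC proteins at TNF receptors, fell early in NCI-H596 and came back in part. It lies on chromosome 9 (120902393 to 120929173, minus strand). Its NCI-H596 levels were 17.3 and 17.8 CPM at 0 h, 6.35 and 6.34 at 3 h, 6.66 and 6.08 at 6 h and 14.3 and 10.01 at 12 h. Those in A549 were 6.29 and 7.57, 8.41 and 7.76, 11.1 and 8.82 and 6.96 and 5.58 CPM. In NCI-H596 the 4 conditions did not overlap except 3 h with 6 h, and in A549 the libraries at 12 h overlapped with those at 0 h. TRAF1 fell 2.76-fold in NCI-H596 at 3 h (log2 -1.47 ± 0.18, adjusted p = 1.82e-05) and 2.77-fold at 6 h (-1.47 ± 0.18, adjusted p = 9.47e-06), and rose from 6 h to 12 h (0.96 ± 0.18, adjusted p = 0.00249). At 12 h it was still -0.51 ± 0.17 (adjusted p = 0.0268) on the log2 scale, a call lost without either library at 0 h (-0.54, adjusted p = 0.0801, and -0.49, adjusted p = 0.109) or the second at 12 h (-0.31, adjusted p = 0.125). In A549 TRAF1 was 0.22 ± 0.19 (adjusted p = 0.475) at 3 h, rose at 6 h (0.53 ± 0.19, adjusted p = 0.0401) and fell again by 12 h against 6 h (-0.66 ± 0.18, adjusted p = 0.0293). The rise at 6 h was lost without the first A549 library at 0 h (0.40, adjusted p = 0.232) or at 6 h (0.37, adjusted p = 0.272). DESeq2 did not call TRAF1 at 6 h in A549 or at 12 h in NCI-H596. The step down was lost without the first at 6 h (-0.51, adjusted p = 0.239) or either at 12 h (-0.87, adjusted p = 0.053, and -0.55, adjusted p = 0.19). TRAF1 in A549 had log2 changes of 0.10 and 0.39 at 3 h, 0.40 and 0.69 at 6 h and -0.26 and 0.0049 at 12 h without the first and the second library at 0 h. TRAF1 in NCI-H596 had -0.81 and -0.31 at 12 h without the first and the second library of that time.

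**Figure D2:**
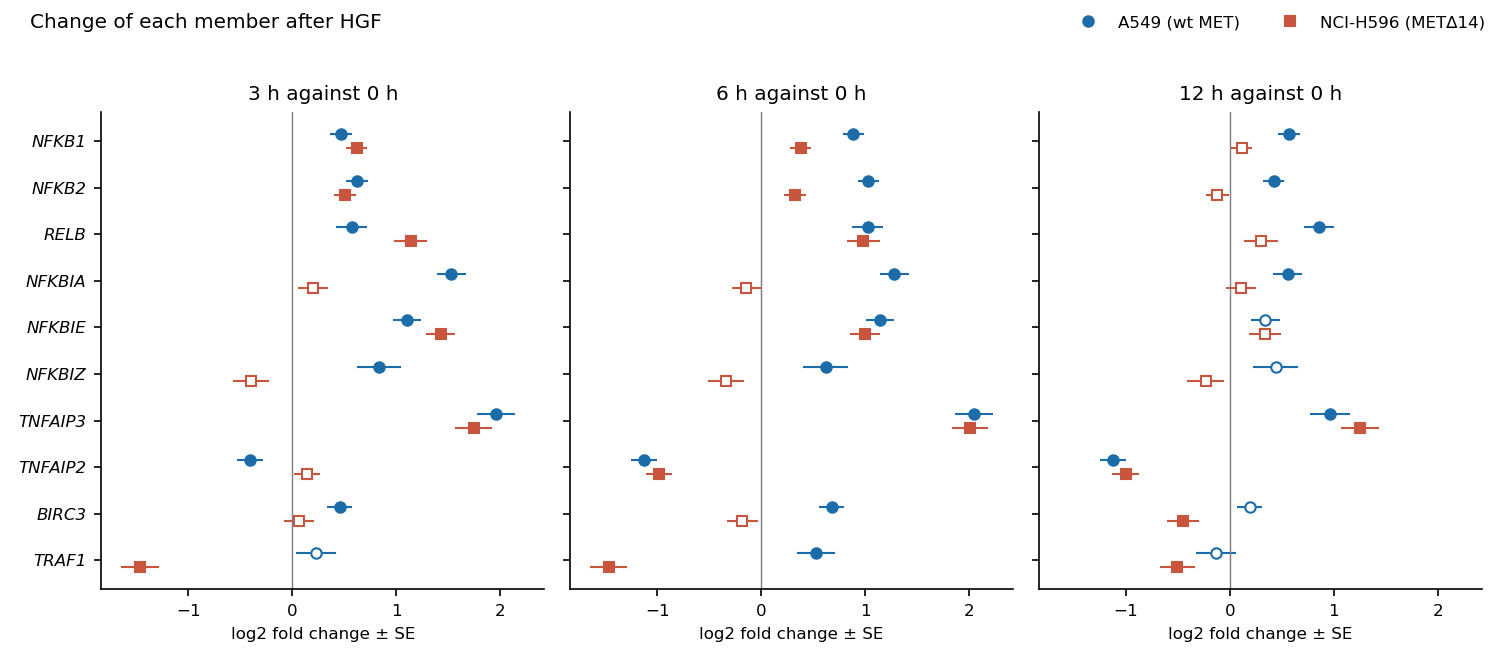
Change of each gene after HGF against 0 h of the same line. The horizontal axis is the log2 fold change with its SE, circles are A549 and squares NCI-H596, and filled symbols passed the edgeR test at an adjusted p of at most 0.05. TNFAIP3 lies at 2.05 in A549 and 2.01 in NCI-H596 at 6 h, TNFAIP2 lies below 0 in both lines from 6 h, and TRAF1 lies at -1.47 in NCI-H596 at 3 h and 6 h.

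The genes called in the steps between successive times were as follows. In A549, 3 genes were called between 3 h and 6 h (NFKB1 and NFKB2 higher, TNFAIP2 lower) against 3.1% of all genes (1.44% higher, 1.66% lower). Between 6 h and 12 h 6 were called, all lower (NFKB2, NFKBIA, NFKBIE, TNFAIP3, BIRC3 and TRAF1), against 11.6% (5.59% higher, 5.98% lower). In NCI-H596, 5 were called between 6 h and 12 h (TRAF1 higher, and NFKB2, RELB, NFKBIE and TNFAIP3 lower) against 18.6% (8.3% higher, 10.3% lower). The step from 3 h to 6 h in A549 lost its calls without single libraries, with 0 called without the first library at 3 h or either at 6 h and 1 without the second at 3 h, or without any of the 4 NCI-H596 libraries at 0 h and 3 h. The last step in NCI-H596 had 1 call without the second library at 6 h.

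Tested directly, the change from 0 h differed between the lines for NFKBIA, NFKBIZ and TRAF1 most, all with a lower value in NCI-H596. The difference of the log2 changes (NCI-H596 minus A549) was called for 4 genes at 3 h (1 higher, 3 lower), against 17.4% of all genes (8.93% higher, 8.47% lower). It was called for 6 at 6 h, all lower in NCI-H596, against 30.2% (16.4% higher, 13.8% lower), and for 3 at 12 h, all lower, against 24% (13% higher, 11% lower). For TRAF1 it was -1.69 ± 0.27 (adjusted p = 0.000434) at 3 h and -1.99 ± 0.26 (adjusted p = 4.01e-05) at 6 h in edgeR. NFKBIA had -1.33 ± 0.20 (adjusted p = 0.000291) and -1.42 ± 0.20 (adjusted p = 8.1e-05), and NFKBIZ -1.23 ± 0.28 (adjusted p = 0.00613) and -0.96 ± 0.28 (adjusted p = 0.0158). BIRC3 differed at 6 h (-0.86 ± 0.19, adjusted p = 0.00307) and 12 h (-0.64 ± 0.20, adjusted p = 0.0272), as did NFKB2 (-0.70 ± 0.15, adjusted p = 0.002 and -0.54 ± 0.15, adjusted p = 0.0152) and NFKB1 (-0.51 ± 0.14, adjusted p = 0.0149 and -0.46 ± 0.15, adjusted p = 0.0327). TNFAIP2 differed at 3 h (0.55 ± 0.18, adjusted p = 0.0408), a call lost in 12 of 16 fits with a library left out. At 12 h 0 genes were called without the first A549 or the first NCI-H596 library at 0 h, and 1 without either A549 library at 12 h. There 5 were called without the second NCI-H596 library at 12 h. At 6 h, NFKB1 (-0.36, adjusted p = 0.0745) and NFKBIZ (-0.77, adjusted p = 0.0891) were not called without the first A549 library at 0 h, nor with either of 2 other libraries left out for each gene, while NFKBIA and TRAF1 were called at 3 h and 6 h without any single library. Without the first and the second A549 library at 0 h, the differences that had been called at 6 h were -0.36 and -0.70 for NFKB1, -0.55 and -0.91 for NFKB2, -1.39 and -1.49 for NFKBIA, -0.77 and -1.20 for NFKBIZ, -0.74 and -1.03 for BIRC3 and -1.87 and -2.17 for TRAF1. Those that had been called at 3 h were -1.30 and -1.38 for NFKBIA, -1.04 and -1.47 for NFKBIZ, 0.31 and 0.73 for TNFAIP2 and -1.56 and -1.85 for TRAF1. At 12 h they were -0.31 and -0.61 for NFKB1, -0.39 and -0.71 for NFKB2 and -0.52 and -0.78 for BIRC3, and -0.48 and -0.45, -0.60 and -0.50 and -0.45 and -0.81 for the same genes without the first and the second NCI-H596 library at 12 h.

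Over the 3 times together, 7 genes differed in their response against 37.6% of all genes. They were the 6 called at 6 h and RELB (adjusted p = 0.00549 in the F test of edgeR), whose difference was 0.57 at 3 h and -0.56 at 12 h without passing at a single time (adjusted p = 0.0885 and 0.0831). At 3 h RELB was called without the first A549 library at 0 h (0.76, adjusted p = 0.027) and not without the second (0.32, adjusted p = 0.405), and was called without either NCI-H596 library at 12 h (0.57, adjusted p = 0.00834, and 0.55, adjusted p = 0.0118). At 12 h, in the other direction, it was called without the second A549 library at 0 h (-0.78, adjusted p = 0.025) or the second NCI-H596 library at 12 h (-0.84, adjusted p = 0.00117), and not without the first of either (-0.37, adjusted p = 0.274, and -0.27, adjusted p = 0.294). The other 3 were not called over the times (adjusted p = 0.212 for NFKBIE, 0.395 for TNFAIP3 and 0.0804 for TNFAIP2), and the size of their differences is bounded as follows. For TNFAIP3 it was -0.21 (95% interval -0.76 to 0.34) at 3 h, -0.038 (-0.59 to 0.51) at 6 h and 0.29 (-0.27 to 0.85) at 12 h. For NFKBIE the values were 0.32 (-0.10 to 0.74), -0.15 (-0.57 to 0.28) and 0.00030 (-0.44 to 0.44). TNFAIP2 was 0.14 (-0.24 to 0.52) at 6 h and 0.12 (-0.26 to 0.50) at 12 h. The intervals leave room for sizeable differences, so the test does not show that the lines responded alike.

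**Figure D3:**
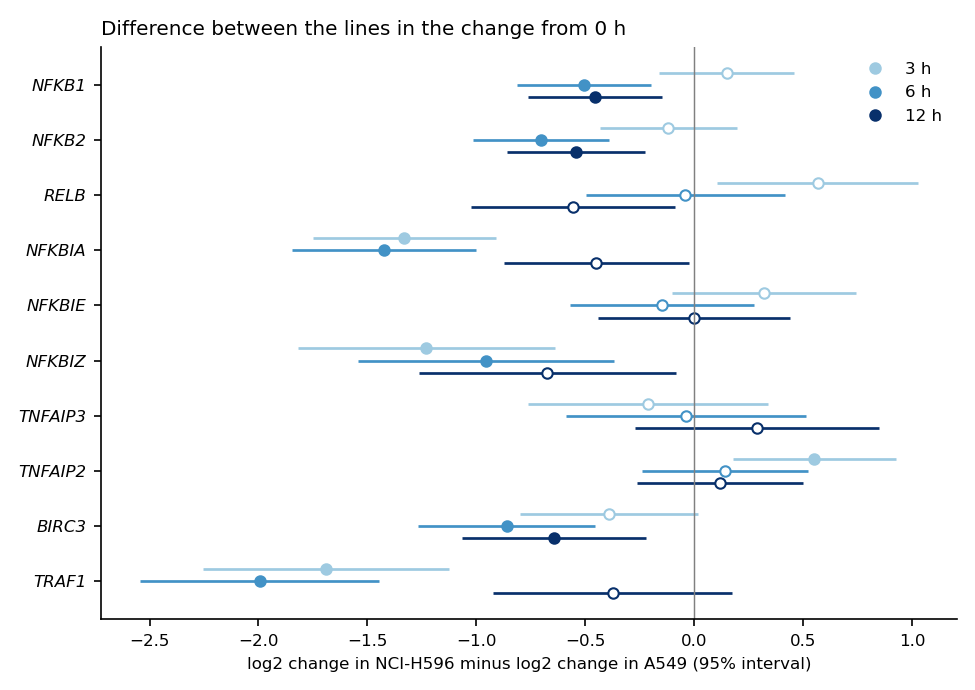
Difference between the lines in the log2 change from 0 h, as NCI-H596 minus A549. Points are estimates at 3 h, 6 h and 12 h from light to dark, lines are 95% intervals, and filled points passed the edgeR test. All filled points lie below 0 except TNFAIP2 at 3 h (0.55), and TNFAIP3 and NFKBIE cross 0 at every time.

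The formula of the study adds line and time and thus fits 1 course for both lines. Under it 6 of the 10 genes were called against 30.6% of all genes: TNFAIP3 (adjusted p = 2.17e-06 in edgeR), NFKBIE (1.32e-05), TNFAIP2 (1.37e-05), NFKB2 (0.00244), RELB (0.00304) and NFKB1 (0.00626). NFKBIA (0.0575), BIRC3 (0.126), TRAF1 (0.348) and NFKBIZ (0.936) were not called, and these 4 had the largest differences between the lines at 6 h.

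Within the group, the courses were compared over the 8 condition means after each line's own mean was removed. Pearson's r was 0.949 between NFKB1 and RELB, 0.945 between NFKB1 and NFKB2, and 0.851 between NFKB2 and RELB. Other pairs lay above the last, among them NFKBIE with TNFAIP3 (0.915), NFKB2 with NFKBIE (0.887) and NFKB2 with BIRC3 (0.866). TRAF1 and RELB had the lowest value, -0.597, being -0.989 over the 4 times in NCI-H596 and 0.429 in A549. Among 9637 other genes, the course most like that of TNFAIP3 was that of NPTX1 (r = 0.995), and the closest to NFKBIE was EML4 (0.994), to RELB PHLDA1 (0.994), to TRAF1 MIB2 (0.99), to NFKB1 DDX5 (0.986), to NFKBIA VRK2 (0.983), to NFKB2 RAD1 (0.979), to BIRC3 LTBP2 (0.978), to NFKBIZ RBM15 (0.968) and to TNFAIP2 AJUBA (0.966). These are descriptions over 8 points that share libraries, for genes picked as the highest of many.

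Outside the 10 genes, a list of 80 other genes of the pathway was followed, of which 75 were tested. The list, too, was chosen with earlier results of these data known, so its shares are a description and not a test. In A549, 26 of them were called at 3 h (24 higher, 2 lower), 39 at 6 h (28 and 11) and 32 at 12 h (19 and 13). These were 34.7%, 52% and 42.7% of the list, against 17.4%, 34.2% and 35.1% of all genes. In NCI-H596 34 (26 and 8), 40 (26 and 14) and 41 (19 and 22) were called, or 45.3%, 53.3% and 54.7%, against 31.7%, 44.1% and 38.3%. The medians of their log2 changes were 0.13, 0.30 and 0.00050 in A549 and 0.22, 0.097 and -0.18 in NCI-H596. The count at 12 h was 21 in A549 without its first library at that time, and in NCI-H596 25 and 27 without the first and the second at 0 h. Over the times, the response of 38 of the 75 (50.7%) differed between the lines, against 37.6% of all genes.

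Of the ligands upstream, TNF was at 0 or 1 count in every library of both lines. IL1B and IL1A, which encode interleukin 1, were near 0 in A549 (at most 1 and 7 counts in a library) and rose in NCI-H596. IL1B was 30.1 and 35.2 CPM there at 0 h, 153 and 148 at 3 h, 112 and 91.5 at 6 h and 30.8 and 39.9 at 12 h, with both libraries at 3 h and 6 h above all others (log2 2.20 at 3 h, adjusted p = 4.37e-07 in edgeR). IL1A was 12.8 and 13.3 CPM at 0 h and 57.3 and 49.0 at 3 h (log2 2.02 ± 0.14, adjusted p = 1.03e-07 in edgeR), and at 12 h its log2 change was -0.20 ± 0.16 (adjusted p = 0.347). Of 8 ligand genes listed, 4 were tested. In NCI-H596 2 were called higher at 3 h and at 6 h, and 2 were called lower at 12 h, neither of them IL1A or IL1B. Each time this was 50% of those tested, against 31.7%, 44.1% and 38.3% of all genes. In A549 0 ligands were called at these times, against 17.4%, 34.2% and 35.1% of all genes. All 4 tested ligands were higher in NCI-H596 at 0 h, with a median log2 difference of 6.71. With IL1B and IL1A near 0 counts in A549 there was little room for a call, so this count does not show how ligands respond there. Of the receptors and adaptors, 11 of 21 were called at 6 h in A549 (5 higher, 6 lower) and 12 in NCI-H596 (10 higher, 2 lower), or 52.4% and 57.1%, against 34.2% and 44.1% of all genes. TRAF5 (-1.22 ± 0.27, adjusted p = 0.0025) and the TNF receptor TNFRSF1A (-0.98 ± 0.098, adjusted p = 3.92e-06) fell in A549. TLR3, a sensor of double-stranded RNA, fell in NCI-H596 from 23.6 and 20.6 CPM at 0 h to 3.56 and 3.43 at 12 h (log2 -2.65 ± 0.24, adjusted p = 1.1e-06). Of the kinases and ubiquitin ligases, 9 of 13 were called at 6 h in A549 (5 higher, 4 lower), or 69.2% against 34.2% of all genes. In NCI-H596 5 were called (2 higher, 3 lower), or 38.5%, below the 44.1% of all genes.

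The list held 5 other subunit and IκB genes, all of which are given. RELA, the p65 subunit, rose in both lines, by 0.57 ± 0.079 at 3 h and 0.56 ± 0.079 at 6 h in A549 and 0.55 ± 0.081 and 0.47 ± 0.081 in NCI-H596 on the log2 scale, with a difference at 6 h of -0.085 (95% interval -0.33 to 0.16). REL, the subunit c-Rel, moved in opposite directions. It was 38.9 and 26.8 CPM at 0 h and 84.4 and 74.97 at 6 h in A549, and 44.98 and 44.4 at 0 h and 14.2 and 14.2 at 6 h in NCI-H596. The lines crossed without overlap at 6 h, with a log2 change of 1.28 ± 0.17 (adjusted p = 7.33e-05) in A549, one of -1.66 ± 0.19 (adjusted p = 6.58e-06) in NCI-H596 and a difference of -2.94 ± 0.25 (adjusted p = 1.65e-06) in edgeR. BCL3, a nuclear IκB protein that binds p50 and p52, rose in A549 at 3 h (1.05 ± 0.13, adjusted p = 4.68e-05) and fell in NCI-H596 at 6 h (-0.57 ± 0.13, adjusted p = 0.0019), with a difference at 6 h of -1.38 ± 0.18 (adjusted p = 4.39e-05). NFKBIB rose at 6 h in A549 (0.56 ± 0.13) and NCI-H596 (0.49 ± 0.15), and NFKBID rose in NCI-H596 at 12 h (0.82 ± 0.23, adjusted p = 0.0106). Of the 9 other inhibitors, 3 were called at 6 h in A549 (33.3%), all higher, and 5 in NCI-H596 (55.6%, 2 higher and 3 lower), against 34.2% and 44.1% of all genes.

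Of 23 tested target genes, 12 were called at 6 h in A549 (11 higher, 1 lower) and 12 in NCI-H596 (8 higher, 4 lower), which is 52.2% of them in each line, against 34.2% and 44.1% of all genes. At 12 h 9 were called in A549 (6 higher, 3 lower), or 39.1% and near the 35.1% of all genes, and 14 in NCI-H596 (5 higher, 9 lower), or 60.9% against 38.3%. CXCL8, the chemokine interleukin 8, had the largest rise in both lines. It was 9.19 and 13.6 CPM at 0 h, 99.4 and 88.6 at 3 h, 151 and 125 at 6 h and 65.3 and 69.1 at 12 h in A549, and 15.8 and 16.8, 231 and 181, 151 and 166 and 31.0 and 55.2 CPM in NCI-H596. All libraries with HGF lay above those at 0 h, by 3.59 ± 0.25 (adjusted p = 4.58e-07) on the log2 scale at 6 h in A549 and 3.66 ± 0.23 (adjusted p = 1.54e-07) at 3 h in NCI-H596. The change of CXCL8 at 12 h differed between the lines (-1.18 ± 0.35, adjusted p = 0.0249 in edgeR). This difference uses 0 h in A549 and 12 h in NCI-H596, the conditions whose replicates lay furthest apart. Its value without single libraries is not given. IER3, an early response gene, rose in A549 at 3 h (1.82 ± 0.14, adjusted p = 4.69e-07) and CXCL3 at 6 h (1.67 ± 0.30, adjusted p = 0.00049), while BCL2L1, which encodes the survival protein BCL-XL, fell at 6 h (-1.02 ± 0.11, adjusted p = 6.99e-06). In NCI-H596, PTX3, a secreted pattern recognition protein, rose at 6 h (2.35 ± 0.15, adjusted p = 2.63e-08) and the transcription factor gene IRF1 fell (-1.62 ± 0.13, adjusted p = 1.49e-07).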

How the data were processed

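RNA of 16 libraries was sequenced by the authors (2 replicates of each of 8 conditions), and reads were mapped to hg38 (STAR 2.5.0 and RSEM 1.3.2 in the submitters' processing notes). The authors deposited whole-number counts per gene, not normalized. The annotation and the use of strand are not given in the sources used here. There were 0 columns without a sample.

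From these deposited counts, edgeR 4.0.16 (R 4.3.3) kept genes with filterByExpr (count 10, total 15), applied TMM scaling and fitted a robust quasi-likelihood model with 1 mean per condition. Benjamini-Hochberg adjustment ran over 15067 genes at a threshold of 0.05. CPM used TMM sizes. Intervals (95%) came from the fitted information matrix. The scripts were tested on simulated data. Alternatives were DESeq2 1.42.0, its size factors, other filters, the replicate number as a block, 1 line alone and each library left out.

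The 10 genes, the pathway list and the markers were chosen with earlier results of these data known. Named pathway genes were, in each line, the 3 largest called rises and falls at any time (mean log2 CPM of at least 1), and for likeness the best correlated gene (mean of at least 3). The other subunits, IL1A and TNF were named after their values were seen.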

Additional observations from a re-analysis of the deposited data

Results flagged for a closer look

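For 7 of the 10 genes the test over the 3 times found that the response to HGF differed between the lines. The largest difference at 1 time, as the log2 change in NCI-H596 minus that in A549, was -1.99 for TRAF1 at 6 h, -1.42 for NFKBIA at 6 h, -1.23 for NFKBIZ at 3 h, -0.86 for BIRC3 at 6 h, -0.70 for NFKB2 at 6 h, -0.51 for NFKB1 at 6 h and 0.57 for RELB at 3 h. RELB alone of these was larger in NCI-H596 at that time. No explanation was tested, and the form of MET cannot be told apart from the cell line.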

How the results depend on the processing

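Of the values recomputed for single genes, 2326 kept direction and side of the threshold, 111 lost a call, 31 gained one and 22 changed sign, none of the last being called. These totals include changes never called, and fits without a library that the comparison does not use, where the log2 change hardly moves. They are therefore no measure of how firm the calls are. With each library left out in turn, the count of the 10 genes called ranged from 4 to 9 at 3 h and was 9 with all libraries in A549, from 2 to 7 at 12 h in NCI-H596, from 0 to 4 between 3 h and 6 h in A549, from 1 to 3 between 3 h and 6 h and from 1 to 6 between 6 h and 12 h in NCI-H596, and from 0 to 5 for the difference between the lines at 12 h. The count of other pathway genes, followed under every alternative after the data were seen, ranged from 21 to 34 at 12 h in A549 and from 25 to 43 at 12 h in NCI-H596. With no filter, 2 genes were called between 3 h and 6 h in NCI-H596, as with at least 10 counts in every library, and 6 for the difference at 12 h. The cause was not tested.

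The sign changes among single genes came with libraries left out, over which the log2 value ranged from -0.32 to 0.0049 for TRAF1 at 12 h in A549, from -0.0086 to 0.28 for TNFAIP2 and -0.081 to 0.21 for BIRC3 at 3 h, and -0.19 to 0.36 for NFKBIA at 12 h in NCI-H596. For the difference between the lines it ranged at 3 h from -0.032 to 0.30 for NFKB1, -0.31 to 0.039 for NFKB2 and -0.54 to 0.042 for TNFAIP3, at 6 h from -0.30 to 0.15 for RELB, -0.38 to 0.21 for TNFAIP3 and -0.095 to 0.32 for TNFAIP2, and at 12 h from -0.20 to 0.22 for NFKBIE, -0.018 to 0.54 for TNFAIP3 and -0.12 to 0.33 for TNFAIP2. The value of NFKBIE at 12 h was also -0.043 with at least 10 counts in every library.

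Libraries with the same replicate number did not deviate together (correlations from -0.16 to 0.11, median -0.021, over 28 pairs of conditions). With the replicate block, NFKB1 between 3 h and 6 h in A549 (adjusted p = 0.0507 in edgeR, log2 change 0.42) and the difference of TNFAIP2 at 3 h (0.0501, 0.55) were no longer called, the count called at any time in NCI-H596 was 7, and no count moved by over 1.5 times. DESeq2 lost the calls of TRAF1 at 6 h in A549 (0.55) and at 12 h in NCI-H596 (-0.49). With the NCI-H596 libraries alone, BIRC3 at 12 h (-0.42) and RELB from 6 h to 12 h (-0.67) were not called. Without a filter, the differences of RELB at 3 h (0.55) and 12 h (-0.55), and of NFKBIA (-0.44) and NFKBIZ (-0.67) at 12 h, were called. At 12 h in A549, 2 alternative fits called NFKBIZ, neither by leaving out a single library. There 4 called NFKBIE, of which 2 left out a single library. The SE of the log2 change at 3 h in A549 was 0.19 for TRAF1, 0.185 for TNFAIP3 and 0.10 for NFKB2, so smaller changes were detectable in NFKB2. The mean log2 CPM of these genes over all libraries was 3.12, 6.23 and 6.24, so the SE did not simply follow the level. What set it was not tested.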
